A study of Homo sapiens with 54 samples.

Results

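The genes described here are 10 that mark or control the epithelial-mesenchymal state of a cell: the epithelial genes CDH1, EPCAM and ESRP1, the mesenchymal genes CDH2, VIM and FN1, and the transcriptional regulators ZEB1, ZEB2, SNAI2 and TWIST1. They were taken by symbol from the deposited expression table, where each of the 10 had a single entry among the 27470 gene entries. The table holds 54 libraries of 3′ mRNA sequencing from 2 human triple negative breast cancer (TNBC) lines, SUM1315, which is BRCA1 mutant, and MDA-MB-468, which is BRCA1 wild type, with 9 conditions of 3 libraries in each line. Parental cells were untreated or treated overnight with the PARP inhibitor olaparib (8 µM in SUM1315, 3 µM in MDA-MB-468), with cisplatin (CDDP; 2 or 4 µM in SUM1315, 1 or 2.5 µM in MDA-MB-468), or with olaparib together with either CDDP dose. Olaparib resistant (OlaR) cells of each line had been selected by long exposure to rising olaparib and were then held without a break in 25 µM (SUM1315) or 15 µM (MDA-MB-468) olaparib, alone or with the same CDDP doses. All 3 OlaR conditions of a line therefore carried olaparib, at a higher dose and for far longer than the parental cells, and a single OlaR derivative stood for each line, so resistance, olaparib dose and length of exposure cannot be told apart.

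Epithelial cells are held together by E-cadherin, the product of CDH1, and display the adhesion molecule EPCAM, while ESRP1 directs the epithelial pattern of alternative splicing. Cells in a mesenchymal state carry N-cadherin (CDH2), the intermediate filament vimentin (VIM) and the matrix glycoprotein fibronectin (FN1). ZEB1, ZEB2, SNAI2 (Slug) and TWIST1 are transcription factors known to drive the mesenchymal state, and the ZEB and SNAI factors bind E-box sequences in the CDH1 promoter and repress it. Breast cancer lines are known to spread along this axis, and the change between the states is widely studied in relation to invasion and drug tolerance.

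Values are adjusted read counts, that is reads per gene adjusted by the depositors to a common library size of 5585170 reads. The adjustment was the quantile adjustment of edgeR within each condition, and the whole reads behind the values could be recovered. Each value thus depends on the other libraries of its condition. A library with no read can hold a value just above 0, such as 0.13 for CDH1 in the second OlaR SUM1315 library without CDDP. Libraries held 4977284 to 7540920 reads in parental SUM1315, 3446613 to 4665505 in OlaR SUM1315, 5574767 to 9268162 in parental MDA-MB-468 and 2070301 to 4676284 in OlaR MDA-MB-468, so depth was lower in the OlaR libraries of both lines. The third untreated SUM1315 library and the third SUM1315 library with 2 µM CDDP had the most scatter against the other libraries of their groups, 9.35 to 20.6 times what sampling of reads alone gives, where the median over all replicate pairs was 3.19. By mean correlation with their own group, the 3 SUM1315 libraries with olaparib and 2 µM CDDP were lowest (r of 0.9641 to 0.9691), just under the third untreated library (0.9692). The labels do not say whether the 3 libraries of a condition came from separate cultures, so p-values measure the spread between these libraries only. Of the breast epithelial keratins, KRT19 stood at 9303 to 17657 adjusted read counts in MDA-MB-468 and at 0 to 4.56 in SUM1315, whereas KRT18 and KRT7 were present in every library of both lines. Leukocyte PTPRC and CD3E, endothelial VWF and CDH5, and stromal LUM and DCN had at most 10 reads in any library, while PDGFRA, PECAM1 and CD14 were present in SUM1315, as was COL3A1 (median 118 adjusted read counts). In MDA-MB-468, PDGFRA stood at 8.83 to 44.6, CD14 at 0.512 to 86.6 and PECAM1 at 1.56 to 16.4, and COL3A1 had at most 1 read. Of the receptors that define TNBC by their lack, PGR had at most 3 reads in any library of either line, while ESR1 reached 25.6 adjusted read counts in SUM1315 and 221 in MDA-MB-468, and ERBB2 reached 63.3 and 59.2.

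Untreated SUM1315 and untreated MDA-MB-468 differed in all 10 genes. The 7 mesenchymal genes and regulators were higher in SUM1315 and the 3 epithelial genes were higher in MDA-MB-468, in all 3 libraries on each side. All 10 were called in the joint limma fit of both lines (adjusted p no higher than 0.05, difference no smaller than 2-fold), where the background was high, with 45.7% of all tested genes called. Libraries were sequenced in batches of 27 whose make-up is not given in the sources used here. Batch therefore cannot be told apart from line here, nor from the OlaR state in the comparisons below. In the plot of untreated levels, no gene had overlapping values in the 2 lines. The share of all tested genes without overlap is not given here, but 72.7% of them passed the adjusted p threshold alone.

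**Figure D1:**
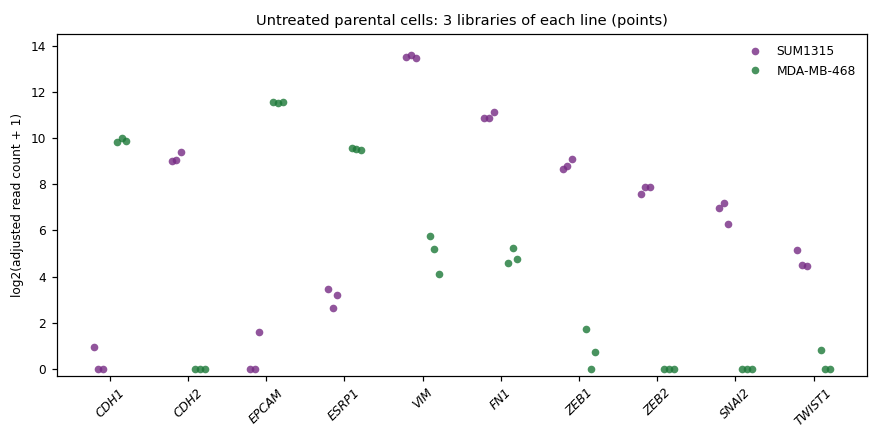
Levels of the 10 genes in untreated parental cells, as log2(adjusted read count + 1), with a point for each of the 3 libraries of SUM1315 (purple) and MDA-MB-468 (green). CDH1, EPCAM and ESRP1 were higher in MDA-MB-468, with CDH1 and EPCAM close to 0 in SUM1315, and the other 7 genes were higher in SUM1315, with CDH2, ZEB2 and SNAI2 at 0 in MDA-MB-468.

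Untreated SUM1315 gave 1, 0 and 0 CDH1 reads and 0, 0 and 2 EPCAM reads in its 3 libraries, against 1330, 1465 and 1281 CDH1 reads and 4404, 4139 and 4141 EPCAM reads in MDA-MB-468. From these reads the ratio of MDA-MB-468 to SUM1315 was 2950 for CDH1 (95% counting interval 529 to 117000). For EPCAM it was 4590 (1270 to 37900), and for ESRP1, which kept 11, 5 and 8 reads in untreated SUM1315, it was 94.6 (63.5 to 148). The epithelial genes were thus at or near the limit of detection in untreated SUM1315.

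In the other direction, VIM stood at 11876, 12484 and 11574 adjusted read counts in untreated SUM1315 and at 53.8, 35.6 and 16.5 in untreated MDA-MB-468, 365-fold higher in SUM1315 (adjusted p = 8.12e-35 in the limma fit). FN1 was at 1894, 1853 and 2253 against 23.0, 37.4 and 26.0, a difference of 68.3-fold (adjusted p = 2.39e-30). MDA-MB-468 therefore still held a low, countable level of both transcripts. CDH2, ZEB2 and SNAI2 had no read in any untreated MDA-MB-468 library, and with a floor of 3 reads over the group they were at least 797-fold, 308-fold and 163-fold higher in SUM1315. ZEB1 had 4 reads and TWIST1 1 read over the 3 untreated MDA-MB-468 libraries, for ratios of 488 (95% counting interval 190 to 1790) and 109 (19 to 4360). These intervals cover counting error only, as do those above.

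Within each line, tests were run on genes that reached 10 adjusted read counts in 3 or more libraries, which left 7 of the 10 genes in SUM1315 (all but CDH1, EPCAM and ESRP1) and 5 in MDA-MB-468 (CDH1, EPCAM, ESRP1, VIM and FN1). A gene is called changed here when its adjusted p, after Benjamini-Hochberg correction over all genes tested in the line with limma, did not exceed 0.05 and the difference was 2-fold or more. For differences between differences (interactions) the adjusted p alone was used. All adjusted p-values come from these limma fits unless another tool is named. Fold changes are on the log2(adjusted read count + 1) scale.

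In SUM1315, OlaR cells carried less N-cadherin mRNA and less ZEB1, ZEB2 and TWIST1 mRNA than parental cells treated with olaparib. These 4 of the 7 tested genes were called, all lower in OlaR cells, against a background of 16.6% of tested genes called in either direction and 9.06% called lower. VIM was also lower, by less than 2-fold, and FN1 and SNAI2 were higher by less than 2-fold, and all 7 passed the adjusted p threshold alone, as did 47.2% of tested genes. The median log2 fold change of the 7 tested genes was -1.34, where that of all tested genes was -0.045. In cultured cells measured in bulk, fewer cells with a transcript and less transcript per cell cannot be told apart.

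Among the mesenchymal genes, CDH2 stood at 209, 219 and 196 adjusted read counts in the 3 OlaR libraries and at 509, 527 and 544 in olaparib-treated parental cells. No OlaR library came near a parental one, and OlaR cells were 2.53-fold lower (log2 fold change -1.34 ± 0.13 SE, adjusted p = 4.42e-10). VIM, the most abundant transcript of the group in this line, stood at 9212, 8817 and 9529 in OlaR cells and 12812, 13246 and 12953 in olaparib-treated cells, and the groups did not overlap although the difference was only 1.42-fold (log2 fold change -0.50 ± 0.08 SE, adjusted p = 7.72e-06). FN1 went the other way from both, at 2586, 2396 and 2308 against 1409, 1493 and 1425, 1.68-fold higher in OlaR cells and again without overlap (log2 fold change 0.75 ± 0.11 SE, adjusted p = 5.46e-07).

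Among the regulators, ZEB1 and ZEB2, zinc finger E-box binding homeobox factors that repress epithelial genes, were both lower. ZEB1 was at 147, 133 and 132 in OlaR cells and 332, 396 and 404 in olaparib-treated parental cells, without overlap (2.73-fold lower, log2 fold change -1.45 ± 0.15 SE, adjusted p = 7.26e-10). ZEB2 had the largest difference of the 7 genes, at 37.9, 28.7 and 30.7 against 154, 183 and 153 (4.93-fold lower, log2 fold change -2.30 ± 0.20 SE, adjusted p = 1.81e-11). Its highest OlaR library was far below its lowest parental library. TWIST1, a basic helix-loop-helix factor, was a low transcript, at 14.9, 32.5 and 9.80 against 47.5, 71.7 and 36.0, resting on 9, 21 and 5 reads in OlaR libraries and 51, 83 and 36 in parental libraries. Its highest OlaR library lay just under its lowest parental library, and the difference was 2.83-fold (log2 fold change -1.50 ± 0.38 SE, adjusted p = 0.00153). SNAI2, the zinc finger factor Slug, differed in the other direction, at 297, 256 and 313 in OlaR cells and 193, 198 and 195 in olaparib-treated cells (1.47-fold higher, log2 fold change 0.56 ± 0.17 SE, adjusted p = 0.0075).

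The epithelial genes stayed at or near the limit of detection in OlaR SUM1315 cells. CDH1 had 0 to 3 reads per OlaR library and 0 to 1 per parental library, EPCAM 0 to 1 and 0 to 5, and ESRP1 2 to 10 and 0 to 13. Their levels were 0 to 3.9 adjusted read counts for CDH1, 0 to 1.26 for EPCAM and 3.67 to 15.6 for ESRP1 in OlaR cells, where ESRP1 overlapped the parental range of 0.0163 to 11.2. A gain of these transcripts was not detectable at this depth. Both CDH1 counts above 1 came from the first library of their condition, with 2, 0 and 0 reads in OlaR cells and 3, 0 and 0 in OlaR cells with 2 µM CDDP.

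**Figure D2:**
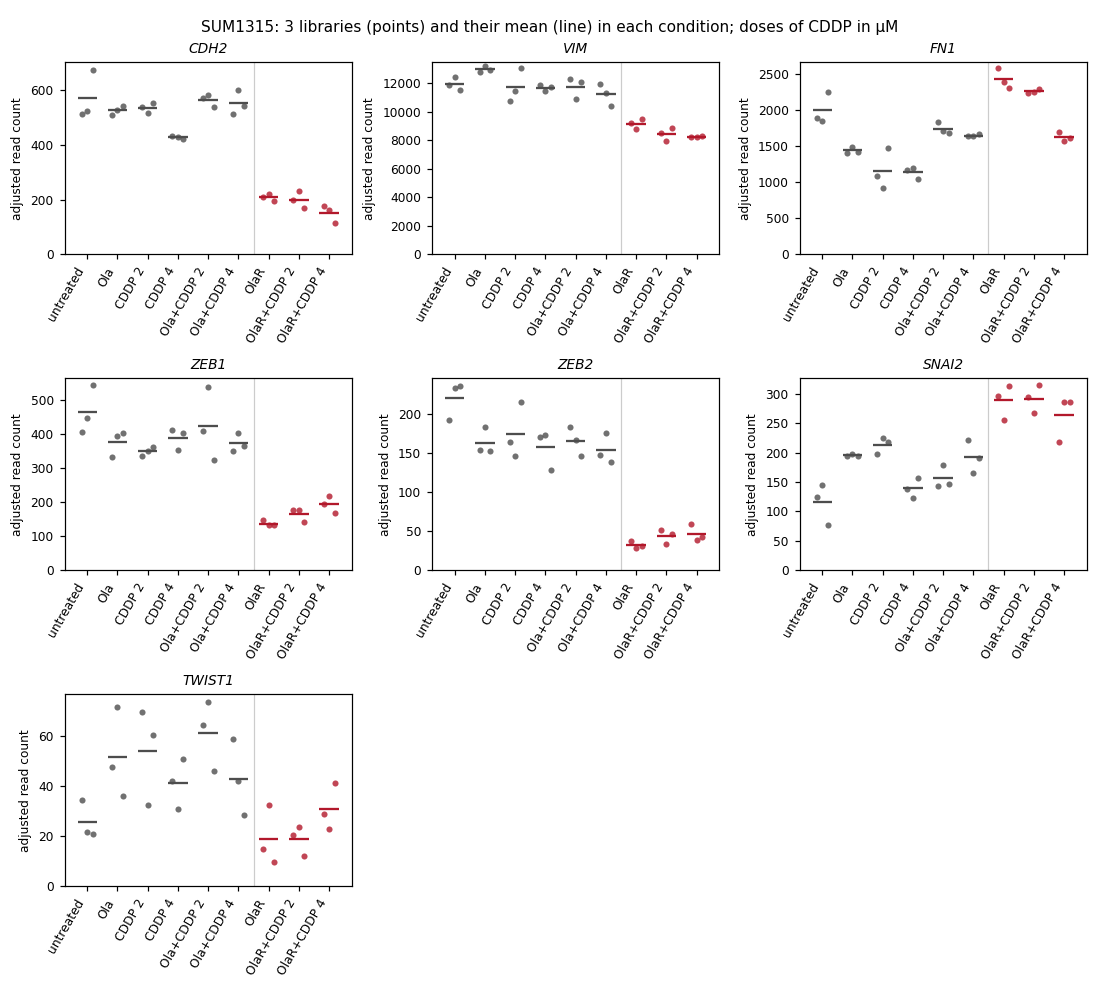
Adjusted read counts of the 7 genes tested in SUM1315 in each of the 9 conditions, with parental conditions in grey and OlaR conditions in red (points, 3 libraries; lines, their mean; vertical axes from 0; CDDP doses in µM). CDH2, VIM, ZEB1 and ZEB2 were lower in all 9 OlaR libraries than in all 18 parental libraries, TWIST1 overlapped, SNAI2 had its 3 highest means in OlaR cells, and FN1 varied with treatment in both. The share of all tested genes separated in this way is not given here.

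CDH2, ZEB1 and ZEB2, which were called lower in OlaR cells against both olaparib-treated and untreated parental cells, are given here with the 250 bases before their most upstream annotated start, because ZEB and SNAI factors are known to bind the E-box CACCTG, or CAGGTG on the other strand. The sequences are from RefSeq (GRCh38.p14), each written 5′ to 3′ on the strand of the gene, with any CACCTG or CAGGTG in capitals. Of the 10 genes, 5 were in the promoter table (CDH2, VIM, FN1, ZEB1 and ZEB2), and CDH1, EPCAM, ESRP1, SNAI2 and TWIST1 were not printed.
CDH2, chr18:28177131-28177380, minus strand: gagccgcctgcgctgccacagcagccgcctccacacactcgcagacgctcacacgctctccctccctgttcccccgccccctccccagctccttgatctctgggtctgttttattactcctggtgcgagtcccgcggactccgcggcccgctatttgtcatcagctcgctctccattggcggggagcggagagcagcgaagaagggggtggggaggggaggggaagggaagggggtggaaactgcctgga
ZEB1, chr10:31318167-31318416, plus strand: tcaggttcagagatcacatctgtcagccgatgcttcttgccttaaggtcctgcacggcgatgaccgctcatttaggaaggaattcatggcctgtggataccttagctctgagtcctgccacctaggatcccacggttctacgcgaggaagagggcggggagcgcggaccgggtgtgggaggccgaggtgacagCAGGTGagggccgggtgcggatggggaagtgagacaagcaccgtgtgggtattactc
ZEB2, chr2:144520120-144520369, minus strand: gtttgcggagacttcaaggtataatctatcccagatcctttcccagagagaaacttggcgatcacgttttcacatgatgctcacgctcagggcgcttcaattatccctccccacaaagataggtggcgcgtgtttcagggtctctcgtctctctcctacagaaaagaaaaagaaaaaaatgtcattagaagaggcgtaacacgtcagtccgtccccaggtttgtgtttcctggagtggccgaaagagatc
The letters CAGGTG occurred 1 time in the ZEB1 window and neither form occurred in the CDH2 and ZEB2 windows. Over the whole promoter table, 6143 of 35116 windows of 250 bases (17.5%) held either form, and of the 12 windows of the 5 genes, 2 did, both of them among the ZEB1 starts. A match in these letters is a description only and says nothing of binding.

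CDH2 spans chr18:27932879-28177130 on the minus strand of GRCh38.p14, ZEB1 chr10:31318417-31529804 on the plus strand and ZEB2 chr2:144384081-144520119 on the minus strand. The other genes lie at chr16:68737292-68835537 (CDH1), chr2:47369311-47387020 (EPCAM), chr8:94641174-94707466 (ESRP1) and chr10:17228241-17237593 (VIM), all on the plus strand. FN1 (chr2:215360865-215436068), SNAI2 (chr8:48917598-48921429) and TWIST1 (chr7:19113047-19117636) lie on the minus strand. Because 3′ mRNA sequencing reads only the end of a transcript, the last 500 bases of each gene were searched for other annotated genes. CDH2 and TWIST1 each had 1 long non-coding gene on the opposite strand there and the other 8 had none, and whether reads were counted by strand is not given in the sources used here, so CDH2 and TWIST1 counts may hold reads from those partners.

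Against untreated rather than olaparib-treated parental SUM1315, 4 of the 7 genes were again called, against 23.0% of all tested genes, but they were not the same 4. CDH2 (-1.44 ± 0.13 SE on the log2 scale), ZEB1 (-1.75 ± 0.15) and ZEB2 (-2.73 ± 0.20) were lower in OlaR cells. SNAI2 was 2.56-fold higher than in untreated cells, which stood at 125, 145 and 76.8 (log2 fold change 1.36 ± 0.17 SE, adjusted p = 3.82e-08). Without the third untreated library, which had high scatter and was the lowest for SNAI2, the SNAI2 difference was 1.09 on the log2 scale with adjusted p = 5.55e-07. TWIST1 was at 34.5, 21.8 and 20.8 in untreated cells, overlapping the OlaR libraries (log2 fold change -0.54 ± 0.38 SE, adjusted p = 0.236), and was thus called against the olaparib-treated reference only. FN1 was 1.22-fold higher in OlaR than in untreated cells (adjusted p = 0.0226), against 1.68-fold with the olaparib-treated reference, and VIM was 1.30-fold lower (adjusted p = 0.00022). The 2 comparisons share their OlaR libraries.

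The contrast between OlaR and olaparib-treated parental cells was repeated with 2 µM and with 4 µM CDDP in both. At 2 µM the same 4 genes as without CDDP were called, again lower in OlaR cells (CDH2, ZEB1, ZEB2 and TWIST1), against 15.5% of tested genes in either direction and 8.44% lower. All 4 calls held without each library in turn, and SNAI2, higher by 0.90, reached 2-fold without the second library of olaparib with 2 µM CDDP (adjusted p = 7.99e-05). At 4 µM only CDH2 and ZEB2 were called, against 15.9% and 9.91%. ZEB1 lay just inside 2-fold at 4 µM, with 194, 217 and 169 in OlaR cells and 352, 404 and 366 in parental cells (log2 fold change -0.95 ± 0.15 SE, adjusted p = 2.4e-06). Without the second OlaR library at 4 µM the ZEB1 difference was -1.04 (adjusted p = 4.72e-06) and past the limit. CDH2 gave the widest gap at 4 µM, at 175, 162 and 114 against 512, 599 and 543 (3.70-fold lower, log2 fold change -1.89 ± 0.13 SE, adjusted p = 1.61e-13). TWIST1 overlapped between the groups at 4 µM (log2 fold change -0.44, 95% interval -1.22 to 0.33, adjusted p = 0.367). SNAI2 overlapped at 4 µM too and was higher in OlaR cells by under 2-fold (log2 fold change 0.45 ± 0.17 SE, adjusted p = 0.0311).

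**Figure D3:**
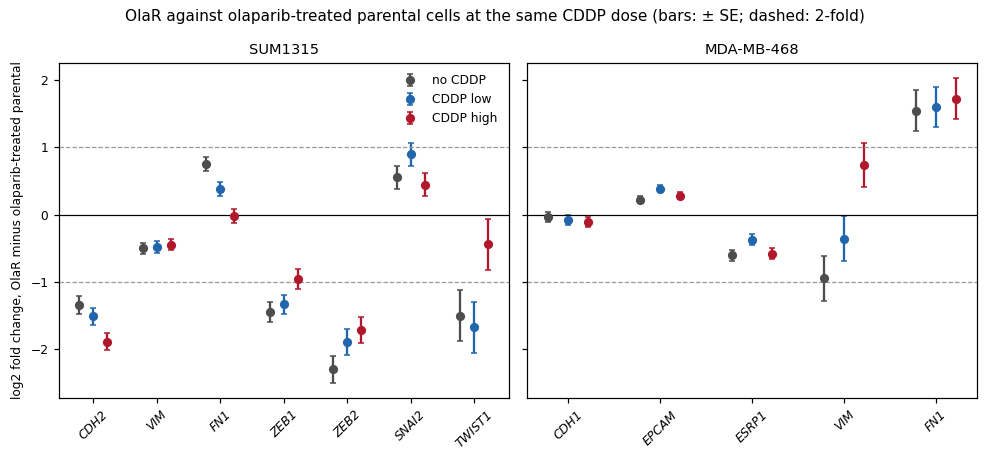
Log2 fold changes of OlaR against olaparib-treated parental cells without CDDP (grey), at the low dose (blue) and at the high dose (red), for the genes tested in SUM1315 (left) and MDA-MB-468 (right), with bars of ± SE and dashed lines at a fold change of 2. CDH2, VIM, ZEB1, ZEB2 and TWIST1 lay below 0 in all 3 comparisons in SUM1315, and SNAI2 lay above 0 in all 3. FN1 lay above 1 in all 3 in MDA-MB-468 but moved from 0.75 to -0.02 in SUM1315. VIM moved from -0.94 to 0.74 in MDA-MB-468.

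FN1 was the tested gene whose OlaR difference in SUM1315 differed with 4 µM CDDP past the adjusted p threshold. In parental cells, 4 µM CDDP alone gave -0.81 ± 0.11 SE for FN1 against untreated cells (adjusted p = 1.52e-07). OlaR cells with 4 µM CDDP stood at 1695, 1570 and 1614 adjusted read counts and parental cells with olaparib and 4 µM CDDP at 1638, 1642 and 1664, which overlapped (log2 fold change -0.02, 95% interval -0.23 to 0.20). OlaR cells with 4 µM CDDP had less FN1 than OlaR cells without it (log2 fold change -0.58 ± 0.11 SE, adjusted p = 0.000215), whereas adding it to olaparib in parental cells gave 0.19 ± 0.11 SE (adjusted p = 0.287). The difference between these CDDP effects was itself past the threshold (interaction -0.77 ± 0.15 SE, adjusted p = 0.00129), and FN1 was the only 1 of the 7 genes for which it was, where 6.40% of all tested genes passed. For CDH2, ZEB1, ZEB2 and TWIST1 the interaction ranged from -0.55 to 1.06, with adjusted p of 0.0695 for CDH2 and 0.257 for TWIST1. Without adjustment, the limma interaction p was under 0.05 for 4 of the 7 genes (FN1, CDH2, ZEB1 and ZEB2), and for 2754 of all 13133 tested genes. Without the first OlaR library at 4 µM, CDH2 passed as well (-0.67, adjusted p = 0.0327).

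Short drug treatment of parental SUM1315 cells gave few calls among the 7 genes. Over 6 drug contrasts only TWIST1 with 2 µM CDDP was called (69.7, 32.4 and 60.3 against 34.5, 21.8 and 20.8 untreated, 2.02-fold higher, adjusted p = 0.038), and its libraries overlapped those of untreated cells. The TWIST1 call was lost without the third 2 µM CDDP library (0.90 on the log2 scale, adjusted p = 0.107) or the third untreated library (0.88, adjusted p = 0.129), the 2 with the most scatter, and also without the first 2 µM CDDP library (0.80, adjusted p = 0.169) or the second untreated library (0.92, adjusted p = 0.0978). With olaparib, TWIST1 was not called (0.96 ± 0.38 SE, adjusted p = 0.0461) but was without the third olaparib library (1.19, adjusted p = 0.0288) or the first untreated library (1.19, adjusted p = 0.0304). The shares of all tested genes called were 9.35% for olaparib, 8.79% for 2 µM and 15.4% for 4 µM CDDP against untreated cells. They were 0.495% and 1.32% for 2 and 4 µM CDDP added to olaparib, and 2.56% for olaparib added to 4 µM CDDP. In the 5 contrasts without a limma call, edgeR called 1 gene (TWIST1 with olaparib) and DESeq2 none, and the unadjusted p was under 0.05 for 5 genes with olaparib, 3 with 4 µM CDDP, 1 for either dose added to olaparib and 3 for olaparib added to 4 µM CDDP. Of all 13133 tested genes, 5822 had such a p with olaparib and 6708 with 4 µM CDDP. With 2 and 4 µM CDDP added to olaparib 2462 and 2932 did, and 3366 with olaparib added to 4 µM CDDP. FN1 was lower than in untreated cells with all 3 single treatments, by -0.47 (olaparib), -0.81 (2 µM CDDP) and -0.81 (4 µM CDDP) on the log2 scale, each past the adjusted p threshold (adjusted p = 0.000738, 3.68e-07 and 1.52e-07) and under 2-fold. When olaparib was added to 4 µM CDDP, FN1 was instead higher, at 1638, 1642 and 1664 against 1164, 1198 and 1044 without overlap (1.45-fold, 0.54 ± 0.11 SE, adjusted p = 0.000621). SNAI2 was higher with olaparib (0.80 ± 0.17 SE, adjusted p = 0.000341) and with 2 µM CDDP (0.93 ± 0.17, adjusted p = 6.31e-05), each under 2-fold. The difference with 2 µM CDDP passed 2-fold without the second untreated library (1.11, adjusted p = 8.29e-06) or the first (adjusted p = 0.000121). With 4 µM CDDP it stood at 139, 123 and 156 and overlapped untreated cells (adjusted p = 0.14). CDH2 was lower with 4 µM CDDP alone (431, 430 and 423, -0.40 ± 0.13 SE, adjusted p = 0.0129), and VIM had no adjusted p at or under 0.05 in any of the 6 contrasts.

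Within OlaR SUM1315 cells, limma, edgeR and DESeq2 called none of the 7 genes with 2 µM or 4 µM CDDP, where 0.533% and 3.82% of all tested genes were called by limma. Without adjustment, p was under 0.05 for 1 and 5 of the 7 genes, and for 1828 and 3879 of all 13133 tested genes. At 4 µM, 3 genes passed the adjusted p threshold under 2-fold. FN1 was lower, as given above, CDH2 was lower (-0.48, adjusted p = 0.00992) and ZEB1 was higher (0.49, adjusted p = 0.0187). TWIST1 passed at 4 µM without the second OlaR library (1.25, adjusted p = 0.0341).

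Ordered by mean level over the 9 SUM1315 conditions, the OlaR conditions held the lowest 3 places for CDH2, VIM, ZEB1 and ZEB2 and the highest 3 for SNAI2. For CDH2 the 6 parental conditions ran from 571 (untreated) down to 428 (4 µM CDDP) and the OlaR conditions from 208 to 151, and neighbours overlapped except on both sides of 4 µM CDDP. For ZEB1 (466 to 137) and ZEB2 (220 to 32.5) the only neighbours that did not overlap were the lowest parental and the highest OlaR condition. VIM ran from 13004 (olaparib) to 8242 (OlaR with 4 µM CDDP), with gaps below olaparib and above the OlaR conditions. FN1 was highest in OlaR cells (2430) and lowest with 4 µM CDDP alone (1135), and untreated cells stood between the OlaR conditions without CDDP and with 4 µM CDDP (2000). SNAI2 (292 to 116) and TWIST1 (61.3 to 18.9) formed unbroken series in which every neighbouring pair overlapped.

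In MDA-MB-468, FN1 rose in OlaR cells from a low base, SNAI2 reads appeared in OlaR libraries only, and E-cadherin mRNA showed no difference past the threshold. FN1 alone of the 5 tested genes was called against olaparib-treated parental cells, where 14.3% of tested genes were. EPCAM was slightly higher, ESRP1 lower and VIM lower, each under 2-fold, so that 4 of the 5 genes passed the adjusted p threshold alone, as did 51.5% of tested genes. The median log2 fold change of the 5 was -0.04, beside -0.03 for all tested genes.

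Of the epithelial genes, CDH1 stood at 850, 953 and 819 adjusted read counts in OlaR cells and 945, 858 and 881 in olaparib-treated parental cells, which overlapped (log2 fold change -0.04, 95% interval -0.18 to 0.11, adjusted p = 0.708). EPCAM was at 3492, 3481 and 3456 against 3154, 3082 and 2735, a difference of 1.16-fold without overlap (log2 fold change 0.22 ± 0.05 SE, adjusted p = 0.000358). ESRP1, the splicing regulator, was at 513, 530 and 506 against 802, 734 and 815, 1.52-fold lower in OlaR cells (log2 fold change -0.60 ± 0.08 SE, adjusted p = 1.26e-08). The 3 epithelial genes therefore did not differ in 1 direction, EPCAM being higher and ESRP1 lower.

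Of the mesenchymal genes, FN1 was at 51.5, 49.4 and 59.0 in OlaR cells and at 19.8, 19.2 and 14.2 in olaparib-treated cells, resting on 43, 40 and 49 reads in OlaR libraries and 33, 27 and 18 in parental libraries. Every OlaR library was above every parental one, and the difference was 2.92-fold (log2 fold change 1.55 ± 0.30 SE, adjusted p = 2.28e-05). VIM was at 16.9, 25.2 and 13.7 against 30.4, 40.0 and 37.1 (1.92-fold lower, log2 fold change -0.94 ± 0.33 SE, adjusted p = 0.0149), in the direction opposite to FN1. The VIM difference passed 2-fold without the second OlaR library (-1.17, adjusted p = 0.00712) or the first olaparib library (-1.05, adjusted p = 0.0172). CDH2 had 0 to 2 reads per OlaR library (6 in all, in 5 of 9 libraries) and 0 to 1 per parental library (2 in all, in 2 of 18). It did not pass the filter, and no conclusion is drawn from so few reads. Even in OlaR cells, FN1 and VIM stayed far below the SUM1315 levels given above.

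Of the regulators, none passed the filter in MDA-MB-468. ZEB1 had 0 to 8 reads per parental library and 0 to 3 per OlaR library, ZEB2 0 to 2 and 0 to 1, and TWIST1 0 to 1 and 0. SNAI2 differed from the other 3: it had no read in any of the 18 parental libraries, out of 130696025 reads in all, and at least 2 reads in each of the 9 OlaR libraries. These were 7, 4 and 5 reads without CDDP, 7, 3 and 2 with 1 µM and 5, 8 and 2 with 2.5 µM CDDP, 43 reads in all, and the OlaR libraries were the shallower ones. With a floor of 3 reads over the 18 parental libraries, SNAI2 was at least 54.5-fold higher in OlaR cells, and at least 9.38-fold higher in OlaR than in olaparib-treated cells without CDDP. In a limma fit without the filter, over 21617 genes, its adjusted p was 1.55e-08. With no read in any parental library, this p and the fold change both rest on the floor and the pseudocount. No conclusion is drawn from them. The 9 OlaR SUM1315 libraries together gave 53010 VIM reads beside 1728 SNAI2 reads, whereas the 9 OlaR MDA-MB-468 libraries gave 126 VIM reads beside their 43 SNAI2 reads, so that the 2 genes stood in a different proportion in the 2 lines.

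**Figure D4:**
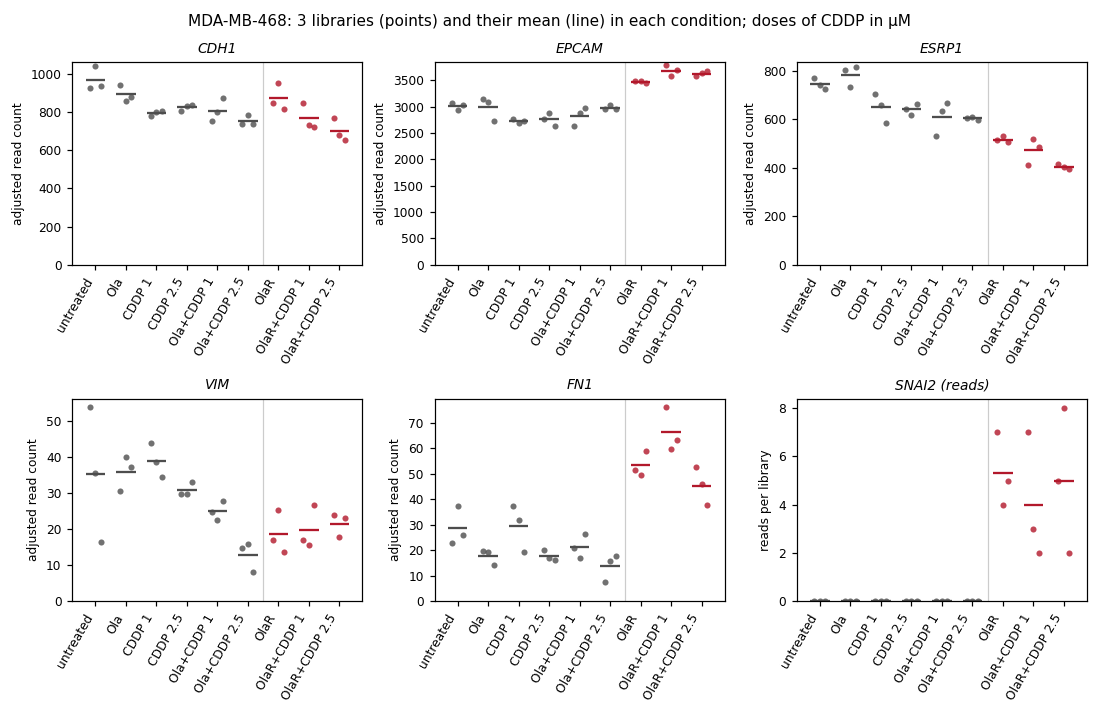
Adjusted read counts of the 5 genes tested in MDA-MB-468, and whole reads of SNAI2, in each of the 9 conditions, with parental conditions in grey and OlaR conditions in red (points, 3 libraries; lines, their mean; vertical axes from 0; CDDP doses in µM). FN1 and EPCAM were higher in all 9 OlaR libraries than in all 18 parental libraries, ESRP1 was lower in all 9, and SNAI2 had reads in OlaR libraries only. The share of all tested genes separated in this way is not given here.

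Against untreated parental MDA-MB-468, none of the 5 genes was called by limma, edgeR or DESeq2, where limma called 15.0% of tested genes. The unadjusted p was under 0.05 for all 5 genes, and for 7554 of all 13012 tested genes. FN1 was 1.86-fold higher than in untreated cells, which stood at 23.0, 37.4 and 26.0, just under the 2-fold limit (log2 fold change 0.89 ± 0.30 SE, adjusted p = 0.011). It reached 1.09 on the log2 scale, with adjusted p = 0.00604, when the second untreated library was left out. EPCAM (0.21 ± 0.05 SE) and ESRP1 (-0.53 ± 0.08 SE) kept their directions, and VIM overlapped, with untreated libraries at 53.8, 35.6 and 16.5 (-0.78 ± 0.33 SE, adjusted p = 0.0429). It passed 2-fold without the third untreated library (-1.24, adjusted p = 0.00254) or the second OlaR library (adjusted p = 0.0198).

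With CDDP in both arms, FN1 remained the only called gene in MDA-MB-468, higher in OlaR cells at both doses, where 13.6% (1 µM) and 14.6% (2.5 µM) of tested genes were called. It was at 76.0, 59.8 and 63.4 against 20.9, 16.9 and 26.5 at 1 µM (3.03-fold, adjusted p = 1.35e-05) and at 52.5, 45.8 and 37.8 against 7.50, 15.7 and 17.9 at 2.5 µM (3.31-fold, adjusted p = 3.27e-06). EPCAM was 1.30-fold and 1.22-fold higher (adjusted p = 1.64e-08 and 7.24e-06). ESRP1 was lower, by -0.37 and -0.58 on the log2 scale (adjusted p = 0.000114 and 2.6e-08), and CDH1 differed by -0.08 and -0.11, with adjusted p = 0.405 and 0.22. VIM, lower in OlaR cells without CDDP, was at 17.0, 15.7 and 26.6 against 24.6, 22.6 and 27.8 at 1 µM, which overlapped (log2 fold change -0.36 ± 0.33 SE, adjusted p = 0.382). At 2.5 µM its sign turned, with OlaR cells at 24.0, 17.7 and 22.9 above parental cells at 14.8, 15.8 and 7.99 without overlap, a difference that did not pass the threshold (log2 fold change 0.74 ± 0.33 SE, adjusted p = 0.057).

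VIM was the gene of MDA-MB-468 whose response to 2.5 µM CDDP on top of olaparib differed past the threshold between parental and OlaR cells. With 2.5 µM CDDP alone, parental VIM differed from untreated cells by -0.05 ± 0.33 SE on the log2 scale (adjusted p = 0.939). In parental cells it stood at 14.8, 15.8 and 7.99 adjusted read counts with olaparib and 2.5 µM CDDP, 2.74-fold below olaparib alone (log2 fold change -1.45 ± 0.33 SE, adjusted p = 0.000692) and 2.37-fold below 2.5 µM CDDP alone (adjusted p = 0.00771). In OlaR cells it stood at 24.0, 17.7 and 22.9 with 2.5 µM CDDP, overlapping OlaR cells without it (log2 fold change 0.23 ± 0.33 SE, adjusted p = 0.696). The interaction was 1.68 ± 0.47 SE (adjusted p = 0.00953), and VIM was the only 1 of the 5 genes past the threshold, where 15.0% of all tested genes were. It passed with edgeR on the recovered reads as well, and DESeq2 gave no adjusted p for it. The contrast with 2.5 µM CDDP alone was lost without the third library of olaparib with 2.5 µM CDDP (-0.96, adjusted p = 0.0933). These VIM values rest on 21, 23 and 10 reads in parental and 16, 14 and 9 reads in OlaR libraries.

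The 2 VIM contrasts just given were the only calls over the 6 drug contrasts in parental MDA-MB-468. The shares of all tested genes called were 1.74% for olaparib, 1.83% for 1 µM and 2.59% for 2.5 µM CDDP against untreated cells, 0.177% and 1.91% for CDDP added to olaparib, and 0.438% for olaparib added to 2.5 µM CDDP. In the 4 contrasts without a limma call, edgeR and DESeq2 called none, and the unadjusted p was under 0.05 for 1 gene with olaparib, 3 with 1 µM CDDP, 4 with 2.5 µM CDDP and 2 for 1 µM CDDP added to olaparib. Of all 13012 tested genes, 4177, 4046, 4586 and 2270 had such a p, in the same order. CDH1 was lower with CDDP alone, at 780, 800 and 806 (1 µM) and 806, 835 and 840 (2.5 µM) against 925, 1045 and 936 untreated, without overlap (-0.28 and -0.23 on the log2 scale, adjusted p = 0.00353 and 0.0175). ESRP1 was lower when CDDP was added to olaparib, by -0.36 at 1 µM and -0.37 at 2.5 µM (adjusted p = 0.00245 and 0.000348). Olaparib alone gave no adjusted p at or under 0.05 for any of the 5 genes.

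Within OlaR MDA-MB-468 cells, limma, edgeR and DESeq2 called none of the 5 genes at 1 or 2.5 µM CDDP, where limma called 0.392% and 2.39% of all tested genes. The unadjusted p was under 0.05 for 1 and 2 of the 5 genes, and for 2425 and 3929 of all 13012 tested genes. At 2.5 µM, CDH1 (772, 681 and 654, log2 fold change -0.32 ± 0.07 SE, adjusted p = 0.00118) and ESRP1 (414, 401 and 396, log2 fold change -0.35 ± 0.08 SE, adjusted p = 0.000993) passed the adjusted p threshold, both lower and under 2-fold. Both genes were thus lower with 2.5 µM CDDP on top of olaparib in parental and in OlaR cells, and their interactions were -0.07 (95% interval -0.28 to 0.14) and 0.02 (-0.21 to 0.25).

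Over the 9 MDA-MB-468 conditions, CDH1 ran from 969 (untreated) to 702 (OlaR with 2.5 µM CDDP) with every neighbouring pair overlapping. EPCAM ran from 3688 to 2733 with the OlaR conditions in the highest 3 places, and ESRP1 from 784 to 404 with the OlaR conditions in the lowest 3. Both had a gap between the OlaR and the parental conditions. FN1 ran from 66.4 to 13.7, with a gap below the 3 OlaR conditions, and VIM from 38.9 (1 µM CDDP) to 12.9 (olaparib with 2.5 µM CDDP), with a gap below 2.5 µM CDDP alone.

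The change from olaparib-treated parental to OlaR cells was then compared between the lines in the joint fit of 54 libraries. The SUM1315 change minus the MDA-MB-468 change passed an adjusted p of 0.05 for 5 of the 10 genes, CDH2, FN1, ZEB1, ZEB2 and SNAI2, a share close to the 41.7% of all tested genes that passed. FN1 was higher in OlaR cells of both lines, by more in MDA-MB-468 (difference -0.80 ± 0.28 SE, adjusted p = 0.0189). VIM was lower in both and the difference did not pass (0.44, 95% interval -0.17 to 1.05, adjusted p = 0.247). Without the third olaparib-treated MDA-MB-468 library the FN1 difference was -0.65 (adjusted p = 0.0725).

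The differences of CDH2 (-1.84 ± 0.42 SE), ZEB1 (-1.98 ± 0.79), ZEB2 (-2.59 ± 0.48) and SNAI2 (-2.32 ± 0.34) rested on MDA-MB-468 libraries near 0 and depend there on the pseudocount. In OlaR and olaparib-treated MDA-MB-468 libraries, CDH2 had 1, 2 and 0 and 1, 1 and 0 reads, ZEB1 3, 1 and 0 and 0, 0 and 3, ZEB2 1, 0 and 1 and 0, 0 and 2, and SNAI2 7, 4 and 5 and 0, 0 and 0. The ZEB1 difference passed in only 3 of 12 repeats with a library removed, over which it ranged from -2.60 to -1.48. TWIST1 (-1.26, adjusted p = 0.0534) passed without the second OlaR SUM1315 library (adjusted p = 0.00935), the third olaparib-treated SUM1315 library (0.0323) or the first olaparib-treated MDA-MB-468 library (0.0296). With edgeR on the recovered reads 2 of the 10 passed, and with DESeq2 3 did.

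Other genes of the axis were read from 4 lists, of 25 junction genes, 24 other epithelial genes, 14 further regulators and 36 mesenchymal matrix and cytoskeleton genes, for OlaR against olaparib-treated parental cells. A gene could enter the test through 3 libraries of 1 condition alone, so a gene absent from the other arm was tested only because it was high in 1 arm. In SUM1315, 4 of 13 tested genes of the epithelial list were called higher and none lower by limma, with a median log2 fold change of 1.13, and 9 of 28 tested matrix and cytoskeleton genes were called lower and none higher, with a median of -0.05. Over all tested genes 7.52% were called higher and 9.06% lower. CD24, a surface glycoprotein of luminal cells, was at 301 against 29.2 adjusted read counts on average (log2 fold change 3.38 ± 0.28 SE, adjusted p = 1.34e-11), and AP1M2, an epithelial sorting adaptor subunit, at 45.4 ± 9.23 against 9.22 ± 2.47 (log2 fold change 2.20 ± 0.48 SE, adjusted p = 0.000304). Of the collagens, COL5A2 was at 123 ± 21.2 against 606 ± 40.1 (log2 fold change -2.30 ± 0.13 SE, adjusted p = 8.09e-16), and COL3A1 fell to 3 reads over the 3 OlaR libraries from 518, a ratio of 98.2 (95% counting interval 33.4 to 478).

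The junction list was split in SUM1315, with 1 gene called higher and 1 lower of 15 tested (median 0.31). The desmosomal cadherin DSC2 had 29 reads in OlaR and none in olaparib-treated cells, at least 17-fold higher with the floor of 3 reads, and P-cadherin (CDH3) was at 8.58 ± 6.26 against 58.7 ± 4.75 (log2 fold change -2.83 ± 0.40 SE, adjusted p = 5.38e-07). Of 11 further regulators tested, 2 were called higher and 2 lower (median 0.04, or 0.17 with 1 gene that had no read in a group set at its bound). SNAI1 (Snail) was at 7.62 ± 1.26 against 102 ± 13.5 (log2 fold change -3.58 ± 0.37 SE, adjusted p = 1.67e-09) and TWIST2 at 296 ± 43.9 against 658 ± 115 (log2 fold change -1.15 ± 0.18 SE, adjusted p = 4.78e-06), so that they moved with ZEB1, ZEB2 and TWIST1. TCF4, which encodes the E-box factor E2-2, was at 637 ± 36.1 against 284 ± 25.9 (log2 fold change 1.17 ± 0.12 SE, adjusted p = 4.8e-10) and KLF8 at 23.9 ± 8.41 against 7.65 ± 1.76 (log2 fold change 1.48 ± 0.60 SE, adjusted p = 0.041). Neither higher call held in another contrast. TCF4 stayed higher under 2-fold, by 0.67 against untreated cells and by 0.74 and 0.76 at 2 and 4 µM CDDP (adjusted p = 8.77e-06, 3.45e-06 and 2.1e-06), and the regulator list gave 0 genes higher and 3 lower by limma in each of these 3 contrasts. TWIST2 was called at both CDDP doses and was under 2-fold against untreated cells (-0.90, adjusted p = 1e-04), and SNAI1 was called lower in all 3.

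In MDA-MB-468 the lists were mixed. Of 14 tested matrix and cytoskeleton genes, 4 were called higher and 3 lower (median 0.33), where 7.13% and 7.12% of all tested genes were. The collagen gene COL5A1 rose from 5 to 111 reads over the 3 libraries (39-fold, 95% counting interval 16.2 to 123) and the gelatinase MMP2 was at 35.6 ± 0.806 against 5.03 ± 0.854 (log2 fold change 2.61 ± 0.50 SE, adjusted p = 1.73e-05), in the direction of FN1. Tropomyosin TPM2 was at 18.6 ± 2.12 against 167 ± 9.58 (log2 fold change -3.11 ± 0.17 SE, adjusted p = 1.34e-21) and the secreted glycoprotein FSTL1 at 101 ± 22.7 against 245 ± 12.6 (log2 fold change -1.29 ± 0.13 SE, adjusted p = 5.65e-12).

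Among 24 epithelial genes in MDA-MB-468, none was called higher and 3 lower by limma (median -0.07), including the epithelial transcription factors GRHL3, at 6.48 ± 1.35 against 25.0 ± 6.83 (log2 fold change -1.78 ± 0.38 SE, adjusted p = 7.03e-05), and OVOL1, at 35.1 ± 5.52 against 83.1 ± 12.8 (log2 fold change -1.22 ± 0.21 SE, adjusted p = 2.02e-06). Of 23 junction genes 1 was called higher, the tight junction gene OCLN at 23.8 ± 2.43 against 11.1 ± 2.53 (log2 fold change 1.05 ± 0.38 SE, adjusted p = 0.0186), and 1 lower, the polarity gene LLGL2 at 350 ± 13.5 against 839 ± 37.9 (log2 fold change -1.26 ± 0.08 SE, adjusted p = 2.79e-18) (median -0.24). Against untreated cells limma called none of the 23, with OCLN at 0.38 (adjusted p = 0.415) and LLGL2 at -0.80 (adjusted p = 1.08e-11) on the log2 scale. LLGL2 was called lower at both CDDP doses, and OCLN was not called at either (-0.43 and 0.13, adjusted p = 0.357 and 0.787). Of 9 further regulators none was called higher and 2 lower by limma (median -0.36), KLF8 at 8.90 ± 3.65 against 75.8 ± 10.2 (log2 fold change -3.01 ± 0.27 SE, adjusted p = 5.99e-14) and SNAI3 at 6.81 ± 5.60 against 20.8 ± 7.47 (log2 fold change -1.73 ± 0.43 SE, adjusted p = 0.000585). SNAI3 was called against untreated cells as well (-1.49, adjusted p = 0.00278) but at neither CDDP dose (-0.56 and -0.43, adjusted p = 0.28 and 0.412). KLF8 was lower at both CDDP doses too (-2.20 and -3.15, adjusted p = 7.63e-10 and 1.11e-14), whereas in SUM1315 its higher level was not called at either dose (0.57 and -0.08, adjusted p = 0.461 and 0.926).

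Genes used as markers of other cell types were also read in SUM1315. Summed over LUM, DCN, COL3A1 and PDGFRA, of which 2 passed the filter and both were called lower, the stromal list stood at 503.8 to 909.2 adjusted read counts in the 18 parental libraries and 110.1 to 179.5 in the 9 OlaR libraries. These 2 genes, COL3A1 and PDGFRA, also belong to the matrix and cytoskeleton list above, so the same lower calls are counted in both lists. The defining stromal genes LUM and DCN had at most 3 and 10 reads in any SUM1315 library. The epithelial keratin list (KRT8, KRT18, KRT19, KRT7, KRT5 and KRT14) summed to 907.8 to 2123 in parental and 1842 to 2908 in OlaR libraries, with KRT7, KRT5 and KRT14 called higher of 5 tested. Most of this sum was KRT7 and KRT18, with medians of 1286.5 and 320 adjusted read counts over the 27 SUM1315 libraries. KRT5 (median 2.47, at most 17 reads in a library) and KRT14 (median 12.3, at most 33 reads) were low, so their calls rest on few reads. Marker calls here are against olaparib-treated cells, where 7.52% of all tested genes were called higher and 9.06% lower. Against untreated cells 2 of the 5 keratins were called higher, beside 10.7% of all tested genes. With CDDP in both arms 2 were at 2 µM and 4 at 4 µM, beside 7.07% and 5.96%. Summed levels of the endothelial list were 120.2 to 207.5 and 44.95 to 111.3, nearly all of it PECAM1, which was called lower, with VWF and CDH5 at no more than 2 reads. Of the leukocyte genes, CD14 was called lower too, at 24.9 ± 4.58 adjusted read counts in OlaR and 67.0 ± 4.74 in olaparib-treated cells, with PTPRC at no more than 8 reads and CD3E at no more than 1. Their part in the lower CDH2, ZEB1 and ZEB2 values was not tested. In MDA-MB-468 the stromal list summed to 12.58 to 44.58 in parental and 8.834 to 23.93 in OlaR libraries, with LUM and DCN at 0 in every library, while FN1 was higher in OlaR cells. The keratin list summed to 12601 to 20948 and 18390 to 23045, with KRT5 called higher of 6 tested. Of all tested genes in this line, 7.13% were called higher and 7.12% lower against olaparib-treated cells. The endothelial list summed to 4.43 to 18.7 and 1.61 to 13.0, and CD14 was called lower, at 4.84 ± 3.38 in OlaR and 28.0 ± 9.77 in olaparib-treated cells. The part of these genes in the FN1 values was not tested.

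The genes whose levels followed VIM most closely over the 27 SUM1315 libraries were, members left out, KDELR2 and TGFBR2 (Pearson r = 0.945 for both) and ZNF385D (0.94). In MDA-MB-468 those closest to CDH1 were FAM160A1 (0.831), NRF1 (0.83) and ST3GAL1 (0.823), and those closest to VIM were AK4 (0.789), MARCKSL1 (0.764) and ANGPTL4 (0.752). The libraries of a condition share treatment and the OlaR libraries share lower depth, so these correlations describe the pattern over libraries and carry no test.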

How the data were processed

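RNA of 54 libraries was sequenced from the 3′ end. Per the labels and the study's methods, the authors demultiplexed reads with CASAVA 1.8.2 and named FastQC, STAR, HTSeq, edgeR and hg38, and the strand setting of counting was not given in the sources used here. The deposited signal values are reads per gene, quantile-adjusted by the authors in edgeR, within each condition, to a library size of 5585170 shared by all samples. Whole reads were recovered for 100% of 1483380 values (relative tolerance 1e-06). The authors' own comparisons in 2 further tables (fold changes and p-values) were not used.

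Libraries were grouped by their labels. Values were tested as log2(value + 1), with pseudocount 1, by limma 3.58.1 (R 4.3.3, intensity trend, all 27 libraries of a line or all 54 for both, Benjamini-Hochberg over 13133 genes in SUM1315, 13012 in MDA-MB-468 and 14460 for both), after requiring a value of 10 in 3 libraries. The 10 genes and all lists were chosen with earlier results of these data known. From each list, up to 2 genes that rose most and 2 that fell most among those called for OlaR against olaparib-treated cells were named, and for CDH1 and VIM the 3 genes most correlated with each. CDH1 had too few reads in SUM1315 for that. The limma fit was tested on simulated data. Alternatives were other pseudocounts, filters and fold limits, fits of only the groups compared, a replicate block, leaving out each library, and edgeR 4.0.16 (called genes for OlaR against olaparib-treated cells, 2077 in SUM1315 and 1876 in MDA-MB-468) and DESeq2 1.42.0 on recovered reads. Counting intervals and floors (3 reads) cover counting error only. A further marker gene is not reported here.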

Additional observations from a re-analysis of the deposited data

Results flagged for a closer look

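In SUM1315 the difference that 4 µM CDDP made to FN1, the fibronectin gene, on top of olaparib was lower in OlaR than in parental cells by -0.771 ± 0.15 SE on the log2 scale (adjusted p = 0.00129, limma interaction). In MDA-MB-468 the corresponding difference for VIM at 2.5 µM CDDP was higher in OlaR cells by 1.684 ± 0.47 SE (adjusted p = 0.00953). Of all tested genes, 6.40% passed the interaction threshold in SUM1315 and 15.0% in MDA-MB-468.

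The change from olaparib-treated parental to OlaR cells differed between the lines for 5 genes, SUM1315 minus MDA-MB-468 on the log2 scale in the joint limma fit. The values were -1.844 for CDH2 (adjusted p = 0.000373), -0.795 for FN1 (0.0189), -1.977 for ZEB1 (0.0409), -2.587 for ZEB2 (1.83e-05) and -2.322 for SNAI2 (2.3e-07). CDH2, ZEB1 and ZEB2 had few or no reads in MDA-MB-468, and SNAI2 had none in its parental cells. The values of these genes and their adjusted p therefore depend on the pseudocount there. Of the 5, edgeR on the recovered reads passed 2 and DESeq2 3. FN1 did not pass without the third olaparib-treated MDA-MB-468 library (-0.65, adjusted p = 0.0725), and ZEB1 passed in only 3 of 12 repeats with a library removed.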

How the results depend on the processing

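No value of the 10 genes that was called changed sign under any alternative. Of 176 tested gene values, 175 kept their call with a pseudocount of 0.5, 174 with 5, 174 without the filter, 175 with only the groups compared, 172 with edgeR and 173 with edgeR on DESeq2 size factors, and of the 172 that DESeq2 gave an adjusted p, 170 did. Replicate numbers were shared across conditions, but deviations of libraries with the same number correlated at only -0.059 to 0.101 between conditions, so they were not treated as pairs. With the number as a replicate block all 176 values kept their call, and the genes called for OlaR against olaparib-treated cells were 2176 rather than 2177 in SUM1315 and 1849 rather than 1855 in MDA-MB-468. Leaving out 1 library at a time, 1157 of 1188 values kept their call.

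Counts of calls among the 10 genes moved with the fold limit. Without one, calls in SUM1315 were 7 (4 with the limit) for OlaR against olaparib-treated cells, 12 (6) over both CDDP doses, 11 (1) over the drug contrasts and 3 (0) for CDDP in OlaR cells, and in MDA-MB-468 they were 4 (1), 6 (2), 9 (2) and 2 (0), with 4 (0) against untreated cells. With a log2 limit of 2, SUM1315 gave 1 call against olaparib-treated and 1 against untreated cells and 0 elsewhere within the line, and MDA-MB-468 gave 0. The single SUM1315 drug call became 0 with a pseudocount of 5, without the filter or with only the groups compared, and 2 with edgeR. Without the filter SNAI2 entered the MDA-MB-468 counts, which became 2, 1 (against untreated) and 4 (over both doses). For the difference between lines, 5 calls became 2 with edgeR under either scaling and 3 with DESeq2. Leaving out 1 library gave 0 to 3 SUM1315 drug calls, 0 to 1 for CDDP in OlaR SUM1315, 1 to 2 for the SUM1315 interaction, 1 to 2 and 0 to 1 for MDA-MB-468 OlaR against olaparib-treated and untreated cells, and 1 to 2 MDA-MB-468 drug calls. The cause was not tested.

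Over all genes, calls for 2 µM CDDP in OlaR SUM1315 were 70 by limma, 32 by edgeR and 43 by DESeq2, and for 1 µM in OlaR MDA-MB-468 they were 51, 21 and 11, or 82 with limma and no filter. Olaparib with 1 µM CDDP against olaparib in MDA-MB-468 gave 23 by limma and 38 by edgeR, and olaparib added to 2.5 µM CDDP 57 and 87, or 101 without the filter. Without the filter the contrasts of untreated SUM1315 with olaparib, 2 µM and 4 µM CDDP gave 2116, 1969 and 3103 calls, against 1228, 1155 and 2022. Depth limits CDH1, EPCAM and ESRP1 in SUM1315 and CDH2, ZEB1, ZEB2, SNAI2 and TWIST1 in MDA-MB-468, which had at most 13 reads per library.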
